A study of Mus musculus with 5 samples.

Results

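The DEAD and DEAH box RNA helicases were examined in MLE-15 cells, a mouse lung epithelial line, after lentiviral knockdown of Grhl2, the gene of a Grainyhead family transcription factor in epithelial cells. Members were the probe sets whose single gene symbol on the array platform starts with Ddx or Dhx followed by a digit, without the RNA sensors Ddx58 and Dhx58. This gave 53 of 34760 probe sets, which stand for 49 of 19937 genes. No threshold on a measured value enters that choice, but the family was proposed with the results of this same contrast known, so its counts and medians are a description and support nothing by themselves.

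RNA was measured on 3 Grhl2 shRNA arrays and 2 non-silencing control arrays, each from its own lentiviral transduction. All cells had been infected for 16 h with a GFP-marked vector at a multiplicity of infection of 50, in polybrene at 5 µg/ml, and selected with puromycin at 5 µg/ml for 6 days, and the line came from tumours of mice that express the SV40 large tumour antigen from the human surfactant protein C promoter. A single hairpin against Grhl2 is named, so its own effects cannot be told apart from those of Grhl2, and 1 cell line was used. The labels say that transductions were independent, and these were the replicates.

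DEAD and DEAH box proteins use ATP to open short RNA duplexes or to strip proteins from RNA, and are named after the amino acids of a conserved motif that binds and hydrolyses the nucleotide. DEAD box members mostly melt short helices locally and act in ribosome assembly, splicing, export and translation. DEAH box members move along a strand, and several drive the steps of the spliceosome with the help of G-patch proteins.

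The label of the cells was checked first. All 8 lung epithelial markers passed the filter on low signal, among them Nkx2-1, a master regulator of lung epithelium, at log2 9.99 to 10.01 over the 5 arrays. Within this list the surfactant protein gene Sftpd fell by 0.33 on the log2 scale (limma adjusted p = 0.0211). Of 9 endothelial, immune and fibroblast markers, Kdr and Ptprc lay below the filter. The rest passed it too, so passing this filter does not by itself tell the cell types apart. The averaged endothelial and immune lists lay at log2 4.18 to 4.34 and 5.13 to 5.20 on the shRNA arrays, against 4.32 to 4.37 and 5.13 to 5.23 on the control arrays. The fibroblast list averaged 6.26 to 6.45 on shRNA arrays and 6.14 to 6.19 on control arrays, and within it Dcn, a matrix proteoglycan, rose by 0.70 (limma adjusted p = 0.0363). The other fibroblast markers did not rise: Col1a1 was at −0.012 and Pdgfra at −0.067, both with overlapping groups. With 1 array left out, the adjusted p ran from 0.0338 to 0.134 for Sftpd and from 0.0126 to 0.180 for Dcn. Sftpd and Dcn were singled out after their values were seen. The part of these cells or genes in the helicase values was not tested. Grhl2 itself had log2 signals of 7.43, 7.43 and 7.60 on shRNA arrays and 7.77 and 7.68 on control arrays. Its log2 fold change of −0.24 (SE 0.065) missed the threshold (limma adjusted p = 0.0818), and 85.0% of the control signal remained. Array medians lay between log2 5.29 and 5.32.

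Of the 49 genes, 46 passed the filter on low signal (a mean log2 signal over the 5 arrays of at least 4.22) and were tested with all 14979 genes that passed. Ddx31 and Ddx18 rose at a limma adjusted p under 0.05, 0 genes fell and 44 did not pass. Among all genes tested, 2.86% were called higher and 3.52% lower, 6.38% in all. At an unadjusted p under 0.05, 8 helicase genes were higher and 1 was lower, beside 11.3% and 11.8% of all genes. The median log2 fold change was 0.054 over the 46 genes and 0.0020 over all genes, and 34 of the 46 lay above 0, beside 50.9% of all genes. In 33 of the 46 (71.7%) the difference was smaller than 0.1 on the log2 scale, a share close to the 67.0% of all genes. These shares are given without a test, because the family was chosen with them known.

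**Figure D1:**
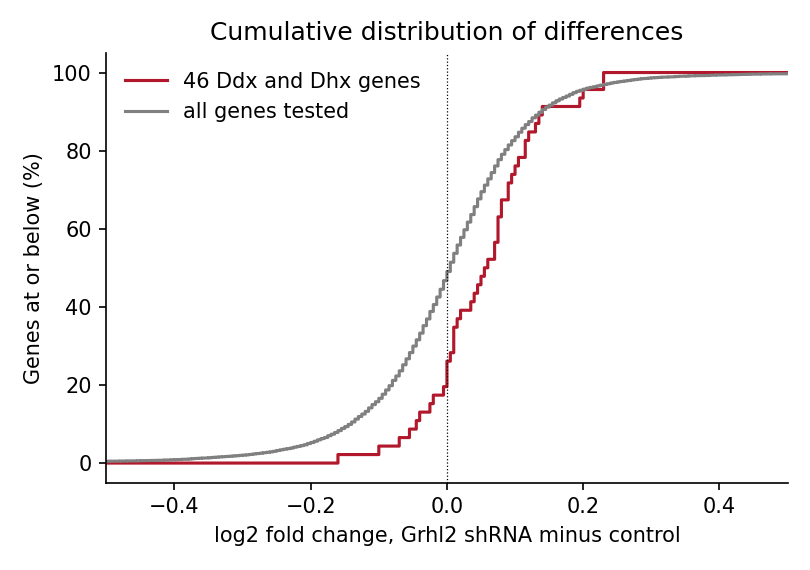
Cumulative share of genes (vertical axis, %) at or below each log2 fold change, Grhl2 shRNA minus control (horizontal axis), for the 46 Ddx and Dhx genes tested and for all 14979 genes tested. The helicase curve lies to the right of the other through most of the range, with medians of 0.054 and 0.0020, and it ends at 0.23 while the curve of all genes runs past both edges of the plot.

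The same difference was laid out array by array, which describes it again and is not separate support. After subtraction of each gene's mean over the 5 arrays, the median helicase gene lay at 0.010, 0.024 and 0.013 on shRNA arrays 1 to 3, and at −0.013 and −0.040 on control arrays 1 and 2. The same medians over all genes lay within 0.0064 of 0. All 3 shRNA arrays were thus above both control arrays, but control replicate 2 was farthest from 0, and without it the family median was 0.031. The groups did not overlap in 22 of the 46 genes: in 18 all shRNA arrays were above both control arrays, and in 4 all were below. Over all genes tested these outcomes took 21% and 20.5%. The median SD between replicates was 0.042 within shRNA and 0.033 within control for the helicase genes, and 0.052 and 0.041 for all genes.

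Helicases of ribosome assembly held both genes that passed. Ddx31, a nucleolar helicase whose yeast counterpart works on the large ribosomal subunit, had log2 signals of 6.97, 6.99 and 7.01 in shRNA cells, against 6.78 and 6.75 in control cells. Every shRNA value exceeded both control values, and the gap was wider than the spread within either group. The means were 6.99 ± 0.02 (SD, n = 3) and 6.77 ± 0.03 (SD, n = 2), a log2 fold change of 0.23 (SE 0.041, limma adjusted p = 0.0273), or 117% of control (95% confidence interval 109 to 125%). Ddx18, a nucleolar helicase that in yeast (Has1) serves both ribosomal subunits, had 9.70, 9.72 and 9.63 in shRNA cells, against 9.49 and 9.48 in control cells. Here too the groups did not overlap. The log2 fold change was 0.20 (SE 0.044, limma adjusted p = 0.0457), or 115% of control (95% confidence interval 107 to 123%). With any single shRNA array left out, neither gene passed. Calls over all genes fell as well: 2.86% were higher as reported, and 0.848% to 1.36% without 1 shRNA array. A fit without a control array leaves 1 control, so no call is read from it here. With any single array of either group left out, the log2 fold changes stayed at 0.21 to 0.24 for Ddx31 and 0.18 to 0.22 for Ddx18. In RNA of a whole culture, a change in the share of cells that express a gene and a change in its RNA per cell cannot be told apart.

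The 250 bases before the RefSeq starts of Ddx31 and Ddx18 are shown because these were the called members. They were searched for the Grainyhead consensus AACCGGTT, which neither holds. Capitals mark CG dinucleotides, 25 for Ddx31 and 10 for Ddx18. Ddx31 lies on the plus strand at chr2:28840156-28840405 and Ddx18 on the minus strand at chr1:121567981-121568230, both in GRCm38.p6.
Ddx31: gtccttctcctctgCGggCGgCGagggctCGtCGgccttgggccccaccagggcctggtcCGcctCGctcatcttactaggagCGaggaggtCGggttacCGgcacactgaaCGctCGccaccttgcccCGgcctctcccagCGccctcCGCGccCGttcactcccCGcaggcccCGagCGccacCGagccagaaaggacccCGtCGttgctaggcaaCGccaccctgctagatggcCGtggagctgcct
Ddx18: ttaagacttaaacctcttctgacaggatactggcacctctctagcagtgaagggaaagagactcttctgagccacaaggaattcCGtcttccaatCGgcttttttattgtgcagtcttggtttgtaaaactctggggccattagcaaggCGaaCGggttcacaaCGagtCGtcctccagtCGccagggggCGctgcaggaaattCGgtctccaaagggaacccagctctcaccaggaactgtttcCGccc

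Ddx24, a nucleolar helicase of the large subunit pathway, came next to these in size. It had 9.02, 9.17 and 9.09 in shRNA cells and 8.89 and 8.91 in control cells. No shRNA value fell to the control level, but the shRNA arrays spread by more than those of Ddx31, and the log2 fold change of 0.19 (SE 0.053) missed the threshold (limma adjusted p = 0.0794). Over the 16 ribosome assembly helicases, Ddx31 and Ddx18 were the 2 calls, and 14 genes missed the threshold. At an unadjusted p under 0.05, 3 were higher and 0 lower. Over all genes tested, 2.86% were called higher, and 11.3% were higher at the unadjusted p. The median log2 fold change of the 16 was 0.075, and 14 lay above 0, beside 50.9% of all genes. Roles were assigned with these values known, so the counts are a description. The remaining members, named here by role and not by size, were Ddx21 at 0.12, Dhx33 at 0.096, Ddx10 at 0.090, Ddx55 at 0.086, Ddx27 at 0.076, Ddx51 at 0.074, Ddx49 at 0.073, Ddx54 at 0.070, Ddx50 at 0.070, Dhx37 at 0.051 and Ddx52 at 0.049. The other two lay below 0, Ddx56 at −0.0090 and Ddx47, which in yeast acts in small subunit assembly, at −0.055. Ddx47 was the exception by arrays as well, with 9.79, 9.79 and 9.71 in shRNA cells, all below the 9.80 and 9.84 of control cells (limma adjusted p = 0.530), and its log2 fold change was −0.029 without shRNA replicate 3 and −0.034 without control replicate 2.

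Ddx21 and Ddx50, nucleolar paralogs, did not pass either (limma adjusted p = 0.340 and 0.380). They had shRNA means of 9.79 ± 0.03 and 8.12 ± 0.02 (SD, n = 3) and control means of 9.67 ± 0.15 and 8.05 ± 0.04 (SD, n = 2). The control arrays of Ddx21 lay 0.21 apart, at 9.78 and 9.57, and the first of them fell within the shRNA range of 9.75 to 9.82.

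**Figure D2:**
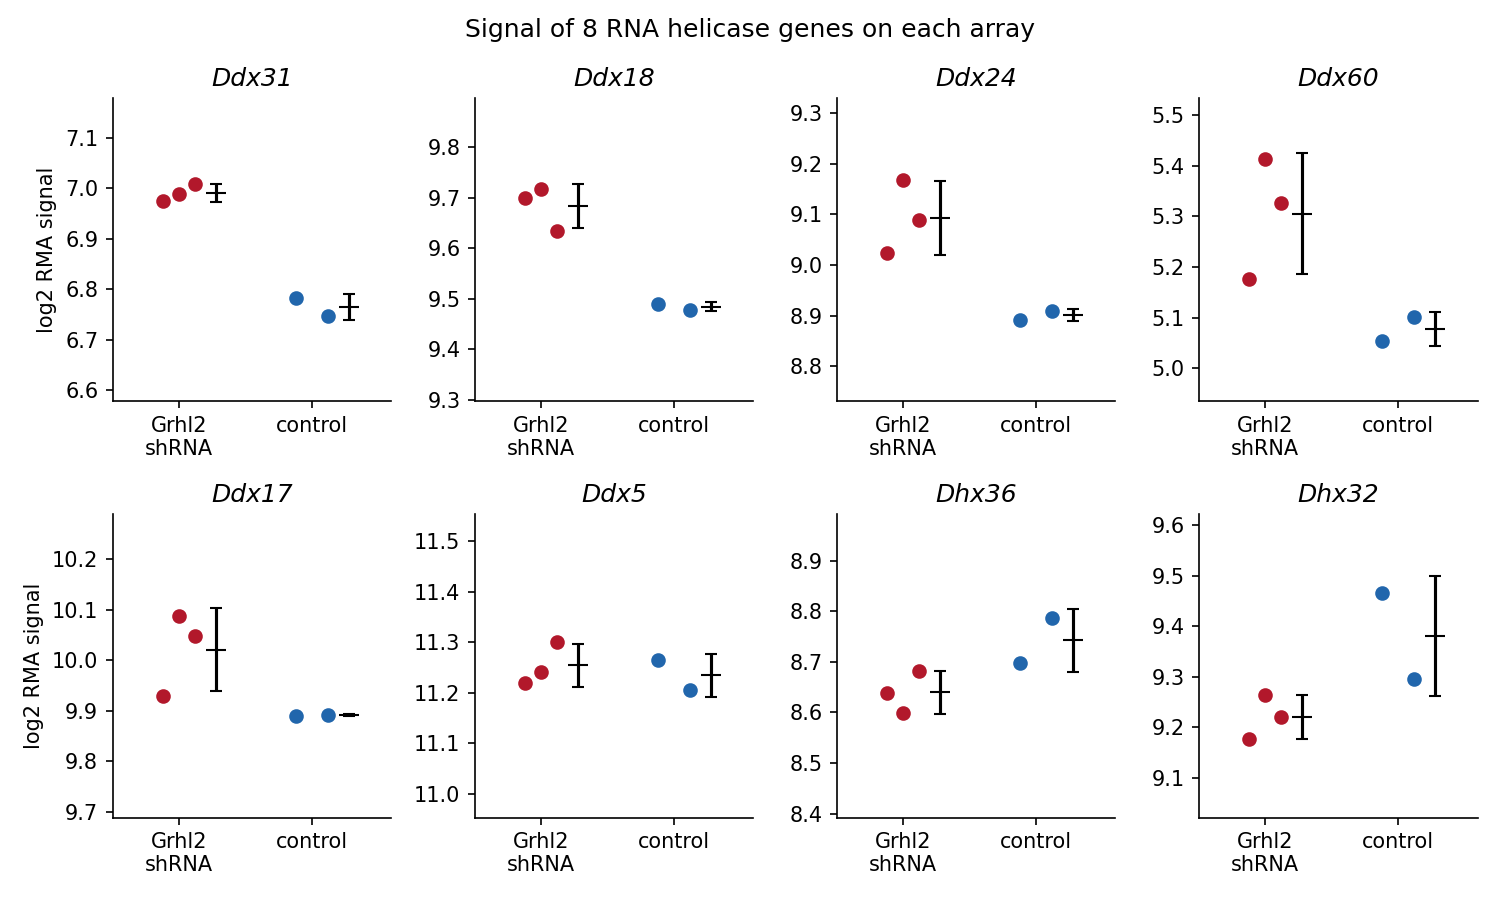
Log2 RMA signal (vertical axes, each spanning 0.6 units) of 8 helicase genes on the 3 Grhl2 shRNA arrays (red, left) and the 2 control arrays (blue, right), with mean ± SD in black. Ddx31, Ddx18, Ddx24, Ddx60 and Ddx17 have all shRNA points above both control points, Ddx5 overlaps, and Dhx36 and Dhx32 have all shRNA points below.

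Spliceosomal helicases showed small differences. Over all genes tested, limma called 6.38%, and 11.3% were higher and 11.8% lower at an unadjusted p under 0.05. Of the 10 spliceosomal helicases tested, 0 were called in either direction by limma, and 1 was higher and 0 lower at that unadjusted p. That gene was Dhx15, which in yeast (Prp43) takes apart spent spliceosomes and also serves ribosome assembly. It had 10.42, 10.43 and 10.42 in shRNA cells, against 10.34 and 10.29 in control cells, a log2 fold change of 0.11 (SE 0.041, limma adjusted p = 0.160). Dhx8, whose yeast counterpart releases spliced mRNA, was at 0.10, Ddx42 of the SF3b complex at 0.068 and Dhx35 at 0.044. Dhx16 and Dhx38, which drive the catalytic steps in yeast, were at 0.0085 and −0.025. Ddx23 and Ddx46, which act as the spliceosome is built, were at 0.0052 and −0.0017, and Ddx41 at −0.043. The median of the 10 was 0.0068, and each of their 95% confidence intervals lay between −0.15 and 0.21.

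Paralogs within the family were set side by side, and the differences between them were not tested. Ddx17 and Ddx5 are coactivators of transcription and splicing that form heterodimers. Ddx17 had 9.93, 10.09 and 10.05 in shRNA cells and 9.89 and 9.89 in control cells, a log2 fold change of 0.13 (SE 0.056, limma adjusted p = 0.223). Ddx5 had 11.22, 11.24 and 11.30 in shRNA cells and 11.26 and 11.20 in control cells, with overlapping groups and a log2 fold change of 0.019 (limma adjusted p = 0.855). Ddx39a and Ddx39b are near-identical helicases that load mRNA export factors, and Ddx39b also acts in spliceosome assembly. Ddx39a had 8.40, 8.39 and 8.37 in shRNA cells against 8.32 and 8.23 in control cells (log2 fold change 0.11, limma adjusted p = 0.198), and its groups did not overlap. Without control replicate 2 its log2 fold change was 0.067. Ddx39b had 9.87, 9.97 and 9.89 against 9.91 and 9.91, with a log2 fold change of −0.0012 that turned to 0.0041 when arrays were centred on their medians, to 0.0028 after repeated quantile normalization and to 0.011 with array weights. Its 95% confidence interval ran from −0.11 to 0.11.

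The export helicase Ddx19b, which remodels mRNA at the nuclear pore together with Gle1, had 7.67, 7.58 and 7.63 in shRNA cells and 7.50 on both control arrays. The shRNA arrays were all higher, by 0.13 on average (SE 0.045), and the limma adjusted p was 0.141. Of the other cofactors of transcription and RNA processing, Ddx20, a subunit of the SMN complex, was at 0.14 (limma adjusted p = 0.158), Dhx9 at 0.034 and Ddx1 of the tRNA ligase complex at 0.0097. None of the 5 cofactors passed in limma, and 1 was higher and 0 were lower at an unadjusted p under 0.05. Of all genes tested, 6.38% passed, and 11.3% were higher and 11.8% lower at that unadjusted p.

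Helicases of translation and mRNA turnover went both ways, with 3 of 5 above 0. Of the 5, 0 were called by limma or at an unadjusted p under 0.05. Over all genes tested, 50.9% lay above 0, 6.38% were called, and 11.3% were higher and 11.8% lower at that unadjusted p. Dhx36, which unwinds G-quadruplexes, had 8.64, 8.60 and 8.68 in shRNA cells, against 8.70 and 8.79 in control cells. All shRNA values were lower, but the log2 fold change of −0.10 (SE 0.049) did not pass (limma adjusted p = 0.264). It was −0.059 without control replicate 2. Dhx34, a factor of nonsense-mediated decay, had 7.20, 7.13 and 7.13 in shRNA cells and 7.23 on both control arrays (log2 fold change −0.073, limma adjusted p = 0.361). Dhx29, which helps ribosomes scan structured leaders, was at 0.057, Ddx6 of processing bodies at 0.036 and Ddx3x, an X-linked translation factor, at 0.011. The last had a 95% confidence interval of −0.084 to 0.11. The mitochondrial helicases Ddx28 and Dhx30 were at 0.085 and −0.00030, and Ddx11, an iron-sulphur DNA helicase that shares the symbol, at −0.028.

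Dhx32 lay lowest of the family. Its signals were 9.18, 9.26 and 9.22 in shRNA cells and 9.47 and 9.30 in control cells, with all shRNA arrays below both controls. The log2 fold change was −0.16 (SE 0.060, limma adjusted p = 0.169), and without control replicate 1, the higher of the pair, it was −0.076. Ddx59, Dhx57 and Dhx40, to which no role was assigned, were at 0.078, 0.0024 and −0.046. Taken by name, 25 of 31 Ddx genes and 9 of 15 Dhx genes lay above 0, beside 50.9% of all genes. Their medians were 0.073 and 0.0085, beside 0.0020 over all genes, and the difference between the classes was not tested.

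**Figure D3:**
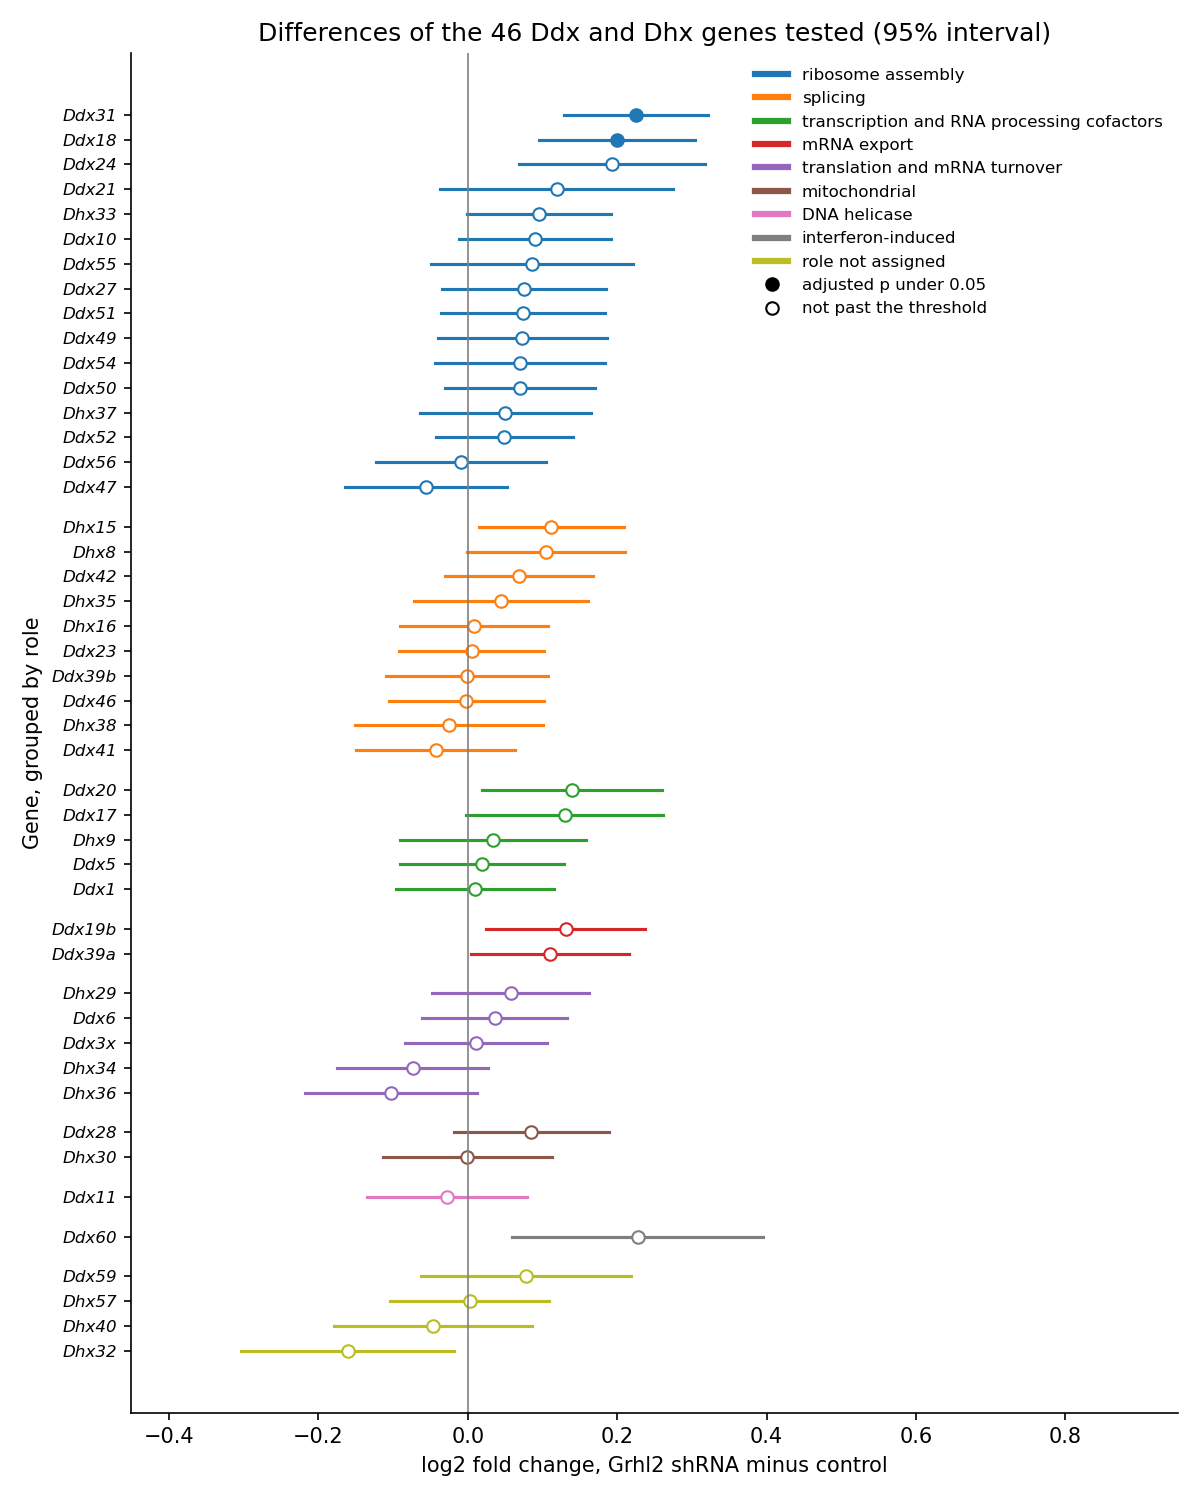
Log2 fold change (Grhl2 shRNA minus control, horizontal axis) of each of the 46 Ddx and Dhx genes tested, grouped by role down the page, with limma 95% confidence intervals. Filled points mark Ddx31 and Ddx18, which passed the threshold, and 37 of the 46 intervals (80.4%) include 0, beside 76.9% over all genes tested.

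Ddx60, an interferon-induced helicase, had the highest log2 fold change of the family. Its signals were 5.18, 5.41 and 5.33 in shRNA cells and 5.05 and 5.10 in control cells. The groups did not overlap, but the shRNA arrays spread over 0.24, and the log2 fold change of 0.23 (SE 0.071, 95% confidence interval 0.059 to 0.40) missed the threshold (limma adjusted p = 0.113). The related RNA sensors outside the family were at 0.23 for Ddx58 (RIG-I), 0.26 for Dhx58 and 0.19 for Ifih1 (MDA5), of which Ddx58 passed (limma adjusted p = 0.0418, 0.0749 and 0.146). With 1 array left out, Ddx58 had adjusted p of 0.0499 to 0.206 and passed in 1 of 5 fits, the one without shRNA replicate 1. The 250 bases before the start of Ddx60 (plus strand, chr8:61927837-61928086, GRCm38.p6) are shown because they hold 2 copies of the core of the interferon-stimulated response element, which was searched as GAAA, any 2 bases and GAAA. This window was chosen after the match was seen. Capitals mark the copies, which begin 53 and 19 bases before the start.
Ddx60: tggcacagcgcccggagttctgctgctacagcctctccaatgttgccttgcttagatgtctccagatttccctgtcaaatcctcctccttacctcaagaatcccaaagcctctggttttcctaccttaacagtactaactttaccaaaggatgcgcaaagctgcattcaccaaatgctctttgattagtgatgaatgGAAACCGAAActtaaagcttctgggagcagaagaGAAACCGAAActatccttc

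Promoter windows (250 bases before to 50 after the start, RefSeq, GRCm38.p6) were listed for 44 of the 49 genes. Motifs were searched on both strands, and the shares are descriptions of letters and not of binding. The motifs other than the Grainyhead consensus were added after the array values were known. The Grainyhead consensus AACCGGTT was in 0 of 44 family promoters, and in 0.199% of the 15562 array genes with a window and 0.174% of all 27025 genes listed. The interferon-stimulated core was in 2 of 44, Ddx60 and Ddx49, beside 3.89% of array genes. The ETS core CCGGAAGT was in 10 of 44 (22.7%, beside 6.03% of array genes), namely in Ddx17, Ddx27, Ddx39b, Ddx47, Ddx50, Dhx8, Dhx9, Dhx30, Dhx34 and Dhx37, and not in Ddx31 or Ddx18. Of the other motifs among the 7 searched, CACGTG was in 7, GCCATNTT (the core of YY1 sites) in 8, an extended YY1 site in 1 and the Kaiso palindrome in 0, beside 9.52%, 7.71%, 1.14% and 0.835% of array genes. The extended YY1 site contains the YY1 core on its other strand. The family's windows held a median of 19.5 CG dinucleotides in the 250 bases before the start, against 12 for array genes, and the part of base composition in these shares was not tested.

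Probe sets of the same gene were set side by side. For Ddx18, the second, dimmer probe set had 8.87, 8.90 and 8.76 in shRNA cells and 8.67 and 8.65 in control cells, a difference of 0.19 beside 0.20 for the brighter one. The platform annotation lists the same accessions for both, so they are not independent genes and their likeness is not separate support. Where in the genome each probe set matches was not examined. With the mean of both in place of the brighter one, Ddx18 missed the threshold (limma adjusted p = 0.0656). For Ddx3x, the brighter probe set differed by 0.011 with overlapping groups, whereas the dimmer one had 9.67, 9.63 and 9.59 in shRNA cells and 9.49 and 9.57 in control cells, a difference of 0.10 with no overlap. The pairs for Ddx5 differed by 0.019 and 0.0072 between the groups, and those for Ddx54 by 0.070 and 0.034. The germ line and testis genes Ddx4, Ddx25 and Ddx43 lay below the filter. Their shRNA means were 2.66, 3.47 and 2.93 and their control means 2.61, 3.45 and 2.95, and their groups overlapped.

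**Figure D4:**
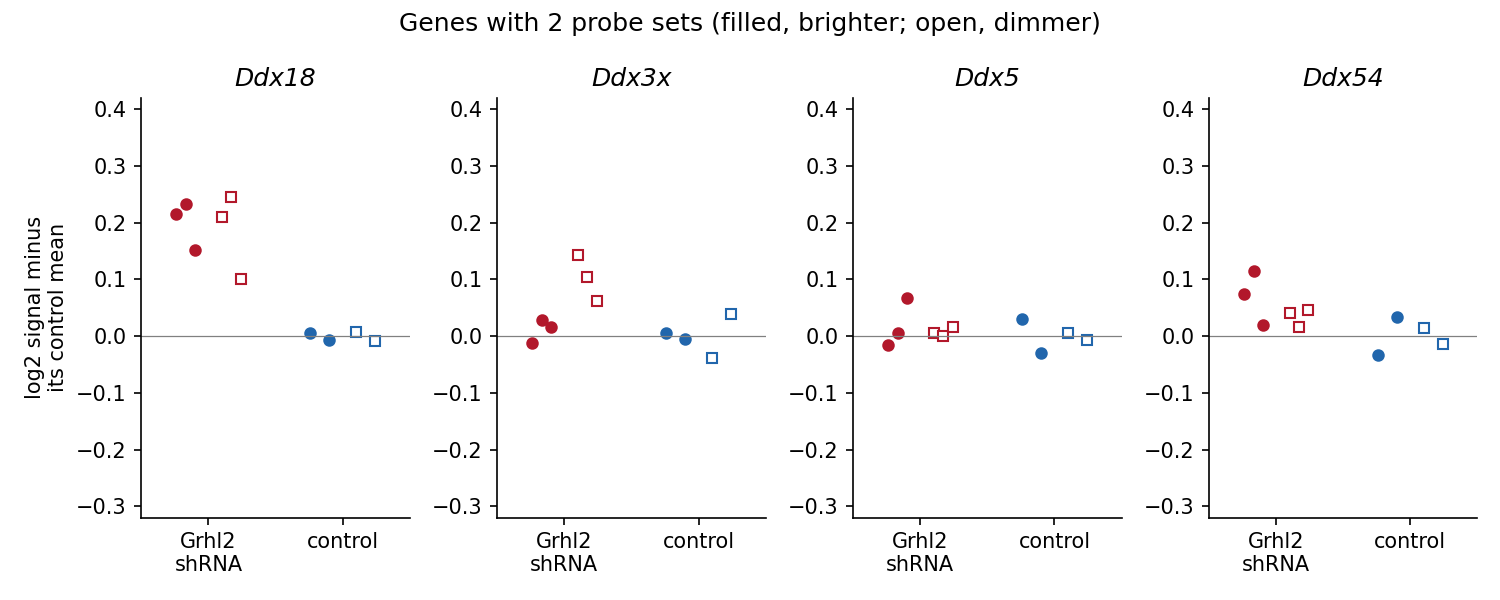
Log2 signal minus the mean of the control arrays (vertical axis) for the 4 helicase genes with 2 probe sets, on the 3 Grhl2 shRNA arrays (red, left) and the 2 control arrays (blue, right). Filled circles are the brighter probe set and open squares the dimmer one. Both probe sets of Ddx18 lie higher on all shRNA arrays, and those of Ddx5 stay near 0.

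Genes that work with these helicases were counted by list. Among all genes tested, 2.86% were called higher and 3.52% lower. Of 14 RNA helicases with other symbols, 0 rose, 1 fell and 13 did not pass, with a median of −0.0025. The gene that fell was Skiv2l, a helicase of the cytoplasmic SKI complex that feeds RNA to the exosome. It had 8.72, 8.79 and 8.71 in shRNA cells and 8.91 and 8.98 in control cells, a log2 fold change of −0.20 (SE 0.047) that lay at the edge of the threshold (limma adjusted p = 0.0499). With any single array left out it did not pass (adjusted p of 0.0939 to 0.238). Of 20 partners of DEAD box proteins in translation, export and decay, 0 rose, 1 fell and 19 did not pass, with a median of −0.0050. Here the gene was Eif4g3, a scaffold that carries the helicase eIF4A. It had 5.90, 6.14 and 6.32 in shRNA cells and 6.68 and 6.60 in control cells, a log2 fold change of −0.52 (SE 0.11, limma adjusted p = 0.0418). It still passed without shRNA replicate 1 or 3 but not without shRNA replicate 2 or either control array, with adjusted p of 0.0282 to 0.188.

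The G-patch proteins and the core spliceosome genes had 0 calls, beside 6.38% of all genes tested. Of 20 G-patch proteins tested with limma, 0 passed, 1 was higher and 0 lower at an unadjusted p under 0.05, and the median was −0.0085. The largest difference was in Rbm17, a splicing factor that binds U2 proteins, with 9.10, 9.01 and 9.05 in shRNA cells against 8.83 and 8.88 in control cells (log2 fold change 0.20, limma adjusted p = 0.0511). Of 25 core spliceosome genes tested with limma, 0 passed, 6 were higher and 0 lower at an unadjusted p under 0.05, and 20 lay above 0, with a median of 0.053. Of all genes tested, 11.3% were higher and 11.8% lower at that p, and 50.9% lay above 0. Prpf6, a protein of the tri-snRNP, had the largest difference, with 9.13, 9.23 and 9.14 in shRNA cells against 8.94 and 9.00 in control cells (log2 fold change 0.20, limma adjusted p = 0.0672).

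**Figure D5:**
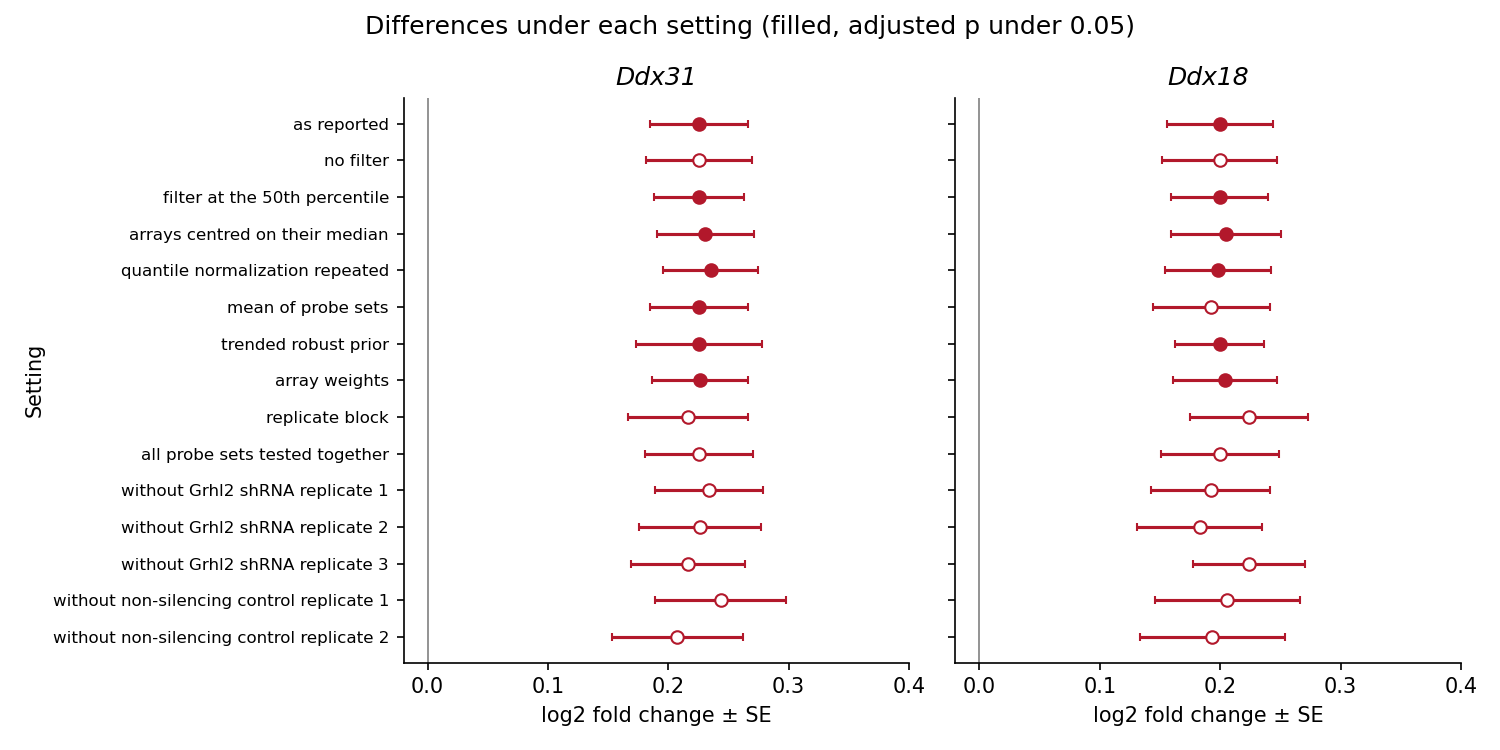
Log2 fold change ± SE (horizontal axes, Grhl2 shRNA minus control) of Ddx31 and Ddx18 as reported and under 14 alternative settings, listed down the page. Filled points have an adjusted p under 0.05. All values lie between 0.18 and 0.24, and the points for the 5 settings that leave out an array are open for both genes.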

How the data were processed

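Total RNA (300 ng per sample) was labelled with biotin and hybridised to whole-transcript arrays. The deposited values are log2 signals. Per the submitters' processing notes, the authors used Affymetrix Expression Console and RMA. Versions, build and any filter are not given in the sources, and the log base was read from the method and the range of values. No scanner file was used. Of 34760 probe sets, 21640 have 1 symbol in the platform annotation, 1321 several and 11799 none listed. Single-symbol probe sets with a mean at or above the 25th percentile (log2 4.22) were kept, and the brightest stood for each gene. The 14979 genes were fitted with lmFit and eBayes of limma 3.58.1 (R 4.3.3, two-sided) and adjusted by the Benjamini-Hochberg method over all of them, at a threshold of 0.05. With 3 residual degrees of freedom, the number of arrays limits the precision. Genes named are Grhl2, called helicases, the 4 largest differences each way, paralog pairs, genes with several probe sets, Ddx60, 3 related sensors and the leading members of each companion list; others are named by role. Members, lists and roles were chosen with earlier results of these data known. Alternatives changed the filter, scaling, probe choice, prior, array weights, replicate block, genes tested and arrays used.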

Additional observations from a re-analysis of the deposited data

How the results depend on the processing

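The median log2 fold change of the helicase genes stayed above 0 in all 14 alternatives, and 0 genes were called lower in any. It ran from 0.031 to 0.056 with 1 array left out, where the lone control array of a fit was assumed to vary like the shRNA arrays. Calls were less stable. With no filter, 0 helicase genes were called, and Ddx31 (log2 fold change 0.23, adjusted p = 0.0606) and Ddx18 (0.20, 0.0911) both missed. With all probe sets tested together the count was again 0 (Ddx31 0.23, adjusted p = 0.194; Ddx18 0.20, 0.233), where limma called 0 of 34760. The mean of probe sets left 1 call and Ddx18 at 0.19. The trended robust prior gave 4, with Ddx24 and Dhx15 added. The filter at the 50th percentile gave 3. These 2 settings called 6.39% and 7.89% of all genes higher, against 2.86% as reported and 0.888% with no filter. Without 1 shRNA array, 0 helicase genes were called in each case. In those fits 0.848% to 1.36% of all genes were called higher, against 2.86% as reported. With any 1 array of either group left out, the log2 fold change was 0.21 to 0.24 for Ddx31 and 0.18 to 0.22 for Ddx18. Over all alternatives the limma adjusted p ran from 0.00695 to 0.194 for Ddx31 and from 0.00422 to 0.233 for Ddx18.

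With the replicate number as a block, 0 helicase genes were called, with Ddx31 at 0.22 (adjusted p = 0.106) and Ddx18 at 0.22 (adjusted p = 0.0982). The block also lowered the calls over all genes to 172 (1.15%), against 956 (6.38%). That share was 2.1% with no filter, 17.2% with the filter at the 50th percentile and 6.26% with the mean of probe sets. With the trended robust prior it was 13.6%, and with array weights 7.3%. Without 1 shRNA array it ran from 1.93% to 3.29%. Deviations of same-numbered arrays correlated at 0.057 and 0.019 across genes. With 2 control arrays, their deviations mirror each other, so these values cannot show whether same-numbered arrays share a preparation. No pairing is stated, and the fit as reported used none. Called companion genes numbered 2 as reported, 0 with no filter, 8 with the filter at the 50th percentile, 1 with the mean of probe sets, 11 with the trended robust prior, 1 with array weights, 0 with the replicate block, 0 with all probe sets, and 0 to 1 with 1 array left out. Values near 0 changed sign: Ddx39b was at 0.0041 with centred arrays, 0.0028 with quantile normalization, 0.011 with array weights, 0.0089 with the block and −0.030 to 0.018 with 1 array left out, and Ddx5 at −0.0046 with the block and −0.011 to 0.049 with 1 array left out. The causes were not tested, beyond the number of genes tested or arrays used where that is the alternative itself. Of 348 values of named genes under alternatives, 273 kept direction and side of the threshold. The signals of Ddx4, Ddx25 and Ddx43 lay below the filter, and no fold change is given for them.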
